A study of Arabidopsis thaliana with 16 samples.

Results

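Xyloglucan endotransglucosylases/hydrolases (XTHs) are secreted enzymes that cut xyloglucan, the hemicellulose that coats and links cellulose microfibrils, and rejoin the cut end to another chain or to water. Through this they loosen, build and repair walls in growing tissue, and the root elongation zone is one of the places where XTH activity is best known. The 4 genes described here were named with earlier results of these data known, so their counts are not those of an unselected list: XTH16 (AT3G23730), XTH18 (AT4G30280), XTH21 (AT2G18800) and XTH33 (AT1G10550). Each was measured by 1 probe set, 4 of the 22810 on the array. XTH18 is one of a closely related set, XTH17 to XTH20, known from root expression. XTH21 is known from growth of the primary root, and XTH33 is a member of the family that is held in the plasma membrane.

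RNA from root tips of Arabidopsis thaliana seedlings was hybridised to 16 Affymetrix ATH1 arrays. There were 8 groups of 2 biological replicates. The groups were the double mutants wer-1 myb23-1 and cpc-1 try-82, the mutant scm-2, and wild type, all in the Columbia ecotype, each after 1 hour on medium with 140 mM NaCl (salt) or on standard medium. All seedlings had grown on standard medium for 5 days before the transfer, and each array holds a pool of about 30 root tips cut about 5 mm from the end. WEREWOLF and MYB23 are MYB factors of non-hair epidermal cells, CAPRICE and TRIPTYCHON are single-repeat MYBs that favour hair fate, and SCRAMBLED is a receptor-like kinase by which epidermal cells take up positional cues. Each mutant is 1 line whose lesion the labels do not describe. The series title sets the question as the salt response of mutants with defective hair patterning. For the mutant arrays titled as standard medium one entry of the labels names NaCl, and for cpc try and scm that entry gives 4 days of growth. The titles and descriptions, which say standard medium, were followed.

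The values are MAS5 signals on a linear scale, with an array median between 72.6 and 86.1. Replicate arrays correlated with r from 0.917 to 0.963 across the 17059 probe sets tested, which are not independent of each other. None of the 5 root identity markers and none of the 4 green tissue markers listed had a probe set with 1 named gene, so the tissue label was not checked against them. Of the mutated genes only TRY was named. Its signal was 481 to 870 in the 4 cpc try arrays and 9.98 to 49.7 in the 4 wild type arrays. This is higher in the mutant. Where the probes lie relative to the lesion is not given in the sources used here, so the value checks no label. Of 5 root hair markers 3 were measured, the expansins EXPA7 and EXPA18 and the endoglucanase GH9C1. Their summed signal was 32.7 to 88.2 in cpc try, against 1632 to 3218 in the other 12 arrays. None was listed at 0. In pooled tissue, fewer cells of a type and less RNA per cell cannot be told apart. The array's control for 25S ribosomal RNA was at 5123 to 10299 in the 8 salt arrays and 2012 to 5229 in the 8 standard arrays, and its part in the salt results was not tested.

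On salt, the signals of all 4 genes lay below those on standard medium: in each genotype both salt arrays were under both standard arrays. Averaged over the genotypes all 4 fell, where 12.8% of the probe sets tested did. XTH33 passed the filter on dim probe sets only through the standard arrays, where it is high, so its fall adds nothing to that count. The separation of both salt arrays from both standard arrays in all 4 genotypes was met by 6.06% of the probe sets. XTH16, XTH18 and XTH21 fell in each genotype. XTH33 passed the test in scm and wild type and not in wer myb23 and cpc try, and no difference between genotypes in its response passed the direct test. A fall with adjusted p under 0.05 in all 4 genotypes was found for 221 of the 17059 probe sets (1.3%). All changes below are on the scale of log2(signal + 4.10), and adjusted p-values are from limma with Benjamini-Hochberg adjustment over all probe sets tested.

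**Figure D1:**
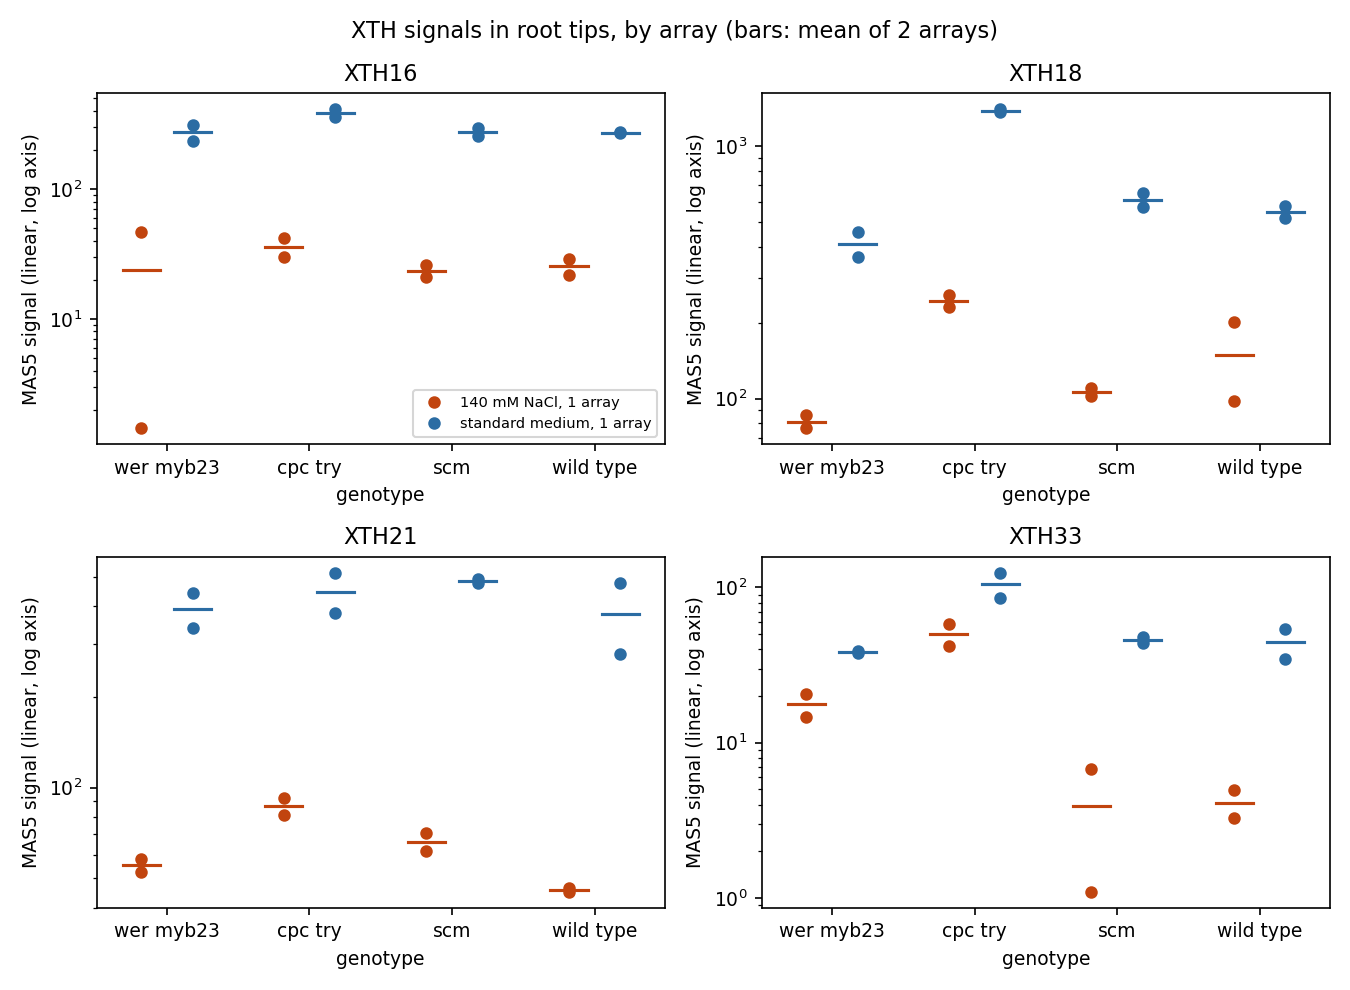
MAS5 signal (log axis) of XTH16, XTH18, XTH21 and XTH33 in each of the 16 arrays, by genotype, with salt left of standard medium; points are single arrays and bars the mean of 2. For each gene and genotype both salt arrays lie below both standard arrays; XTH33 on salt is between 42.0 and 58.2 in cpc try and between 3.25 and 4.96 in wild type.

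XTH16 had the largest fall of the 4 genes on this log2 scale. Its signal was 46.5 and 1.43 in wer myb23 on salt, against 236 and 313 on standard medium. In cpc try it was 29.9 and 41.7 on salt, against 356 and 410 on standard medium. The media were far apart in both double mutants, and the salt arrays of wer myb23 were unlike each other. In scm it was 26.0 and 20.9 on salt, against 256 and 294 on standard medium. In wild type the salt arrays gave 29.0 and 21.8, and the standard arrays 269 and 273. All 8 salt arrays thus lay below all 8 standard arrays, as they did for 2.78% of the probe sets tested. The mean signal on salt was 8.72% of that on standard medium in wer myb23, 9.34% in cpc try, 8.54% in scm and 9.37% in wild type. By this ratio XTH33 was similar in scm (8.59%) and wild type (9.26%).

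The log2 change of XTH16 was -4.04 in wer myb23, -3.29 in cpc try, -3.34 in scm and -3.23 in wild type, each ± 0.60 (SE, n = 2 arrays per medium), with limma adjusted p from 6.5e-05 to 0.0010. Averaged over the genotypes it was -3.48 ± 0.30 (SE, 8 arrays per medium, limma adjusted p = 1.1e-08), the 7th lowest of the 17059. This average ran from -3.88 to -2.77 over the alternatives run. On salt 2 of the 8 arrays of XTH16 were under the 25th percentile of all signals. The wer myb23 arrays on salt stood far apart, and the size there rests on them: the change was -2.45 without salt replicate 2 and -5.64 without salt replicate 1. Their spread also enters the SE of XTH16 in every genotype, which is estimated over all 8 groups.

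XTH21, the gene known from primary root growth, fell in every genotype, and its salt arrays were close to each other. Its signal was 58.2 and 52.7 in wer myb23 on salt, against 338 and 443 on standard medium. In cpc try it was 81.4 and 92.5 on salt, against 516 and 379 on standard medium. The salt arrays were low in both double mutants, with cpc try above wer myb23. In scm it was 61.6 and 70.7 on salt, against 476 and 492 on standard medium. In wild type it was 45.1 and 46.3 on salt, against 477 and 277 on standard medium. All 8 salt arrays, at 45.1 to 92.5, lay below all 8 standard arrays, as they did for 2.78% of the probe sets tested. The log2 change was -2.72 in wer myb23, -2.30 in cpc try, -2.80 in scm and -2.88 in wild type, each ± 0.27 (SE), with limma adjusted p from 2.3e-07 to 5.2e-06. The average of -2.67 ± 0.13 (SE, limma adjusted p = 2.4e-12) was the 22nd lowest of all.

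XTH18, of the root-expressed set, fell in every genotype and had its highest signals in cpc try. It was at 86.0 and 76.3 in wer myb23 on salt, against 363 and 456 on standard medium. In cpc try it was at 231 and 258 on salt, against 1362 and 1400 on standard medium. On each medium cpc try was above wer myb23. In scm it was at 110 and 102 on salt, against 572 and 650 on standard medium. In wild type it was at 201 and 97.5 on salt, against 579 and 521 on standard medium. The lowest standard array, 363, lay above the highest salt array, 258, a separation that 2.78% of the probe sets tested showed. The log2 change was -2.27 in wer myb23, -2.48 in cpc try, -2.48 in scm and -1.94 in wild type, each ± 0.25 (SE), with limma adjusted p from 5.6e-07 to 1.6e-05. Averaged it was -2.29 ± 0.12 (SE, limma adjusted p = 7.2e-12), the 44th lowest.

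XTH33, the plasma membrane form, was dim on salt outside cpc try. Its signal was 20.7 and 14.6 in wer myb23 on salt, against 37.9 and 38.9 on standard medium. In cpc try it was 58.2 and 42.0 on salt, against 124 and 85.7 on standard medium. In these mutants the media were apart but nearer to each other than for the other genes. In scm it was 1.09 and 6.78 on salt, against 44.1 and 47.7 on standard medium. In wild type it was 4.96 and 3.25 on salt, against 34.4 and 54.3 on standard medium. Salt and standard arrays were apart within each genotype, but the cpc try arrays on salt overlapped with the standard arrays of the other genotypes. On salt 6 of its 8 arrays were under 21.7, the 25th percentile of all signals, and on standard medium 0 of 8 were.

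The log2 change of XTH33 was -2.73 ± 0.66 in scm (SE, limma adjusted p = 0.011) and -2.54 ± 0.66 in wild type (SE, limma adjusted p = 0.016). In wer myb23 it was -0.98 ± 0.66 and in cpc try -1.0 ± 0.66 (SE, limma adjusted p = 0.44 and 0.42). The calls in scm and wild type rest on few arrays. In wild type the change was -2.24 without standard replicate 2 (limma adjusted p = 0.13) and -2.39 without salt replicate 2 (limma adjusted p = 0.071). In scm it was -2.78 without standard replicate 1, -2.68 without standard replicate 2 and -2.20 without salt replicate 1 (limma adjusted p = 0.070, 0.082 and 0.12). The average over genotypes was -1.81 ± 0.33 (SE, limma adjusted p = 0.00023), and it ran from -2.20 to -1.04 with the pseudocount.

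By count, XTH16, XTH18 and XTH21 fell in each genotype. XTH33, called in scm and wild type only, is left out of this count, as it passed the filter only through the standard arrays. The share of all probe sets that fell was 4.99% in wer myb23, 4.19% in cpc try, 3.12% in scm and 3.89% in wild type. The median log2 change of the 4, XTH33 included, was -2.49 in wer myb23, -2.39 in cpc try, -2.77 in scm and -2.71 in wild type. That of all probe sets tested lay within 0.01 of 0. The mean log2 value of XTH33 was 4.03 on salt and 5.84 on standard medium, with the limit of the filter at 4.40.

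**Figure D2:**
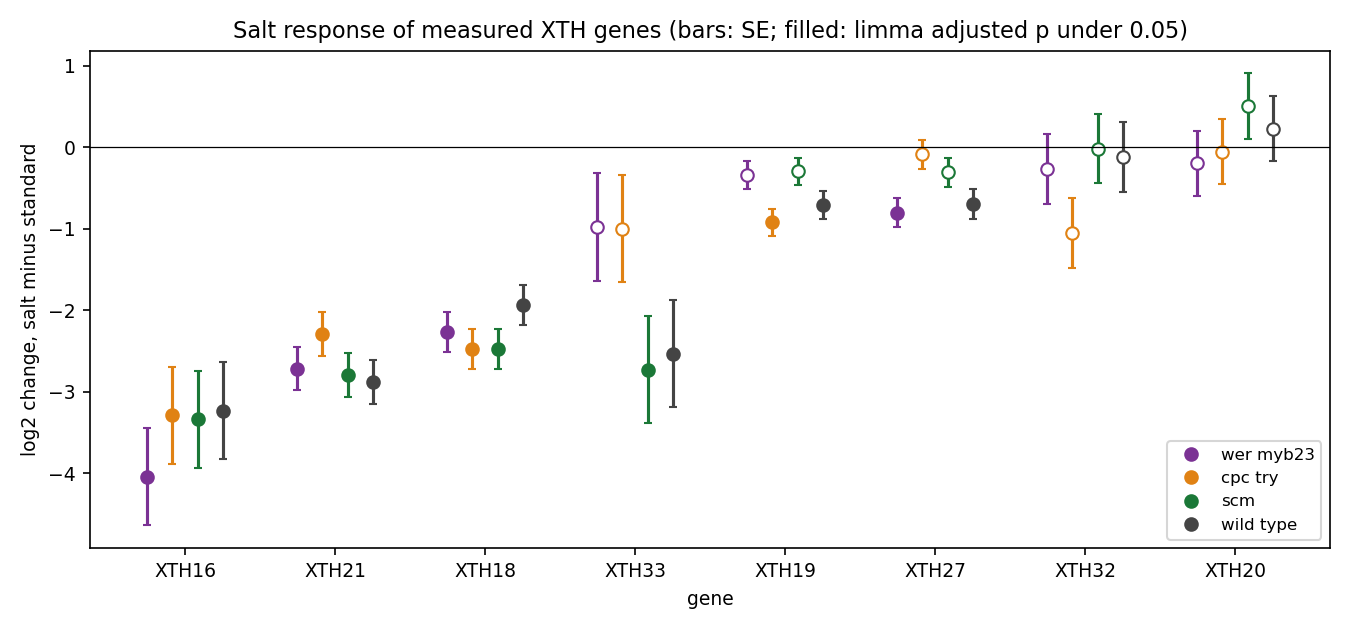
Log2 change between salt and standard medium (salt minus standard) for the 8 tested XTH genes in each genotype, with SE bars; filled points have a limma adjusted p under 0.05. XTH16, XTH21 and XTH18 lie at or below -1.94 in every genotype, XTH33 is near -1 in wer myb23 and cpc try, and XTH20 lies on both sides of 0.

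Whether the salt response differed between genotypes was tested directly. No difference between a mutant and wild type passed the test. The count was 0 of 4 genes for each mutant in limma, and also 0 of 4 at an unadjusted p under 0.05. Of the 17059 probe sets, 860 were under this unadjusted limit for wer myb23, 1480 for cpc try and 764 for scm. The background of adjusted calls was 0.00586% of the probe sets for wer myb23, 0.0176% for cpc try and 0% for scm. A test over all 4 genotypes together likewise called 0 of 4 (0 of 4 unadjusted), with a background of 0.0586% (1226 probe sets unadjusted). The 3 comparisons share the wild type arrays.

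The intervals are wide for 2 of the genes. For XTH33 the response of wer myb23 minus that of wild type was 1.56 on the log2 scale with a 95% interval from -0.38 to 3.50, and for cpc try it was 1.54 with an interval from -0.40 to 3.47. For XTH16 in wer myb23 the difference was -0.81, with an interval from -2.57 to 0.94. The intervals for XTH18 were narrower, from -1.06 to 0.40 for wer myb23 and from -1.27 to 0.19 for both cpc try and scm. Those for XTH21 ran from -0.63 to 0.96 for wer myb23, from -0.21 to 1.38 for cpc try and from -0.71 to 0.88 for scm.

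**Figure D3:**
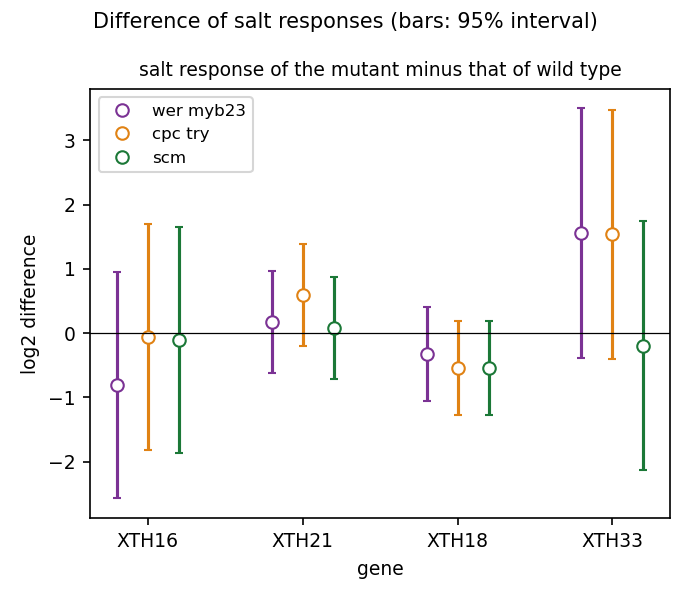
Difference between the salt response of each mutant and that of wild type (log2, mutant minus wild type) for the 4 genes, with 95% intervals from limma. All 12 intervals include 0; for XTH33 the estimates are 1.56 in wer myb23 and 1.54 in cpc try.

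Among the genotypes the mean signal was highest in cpc try for each gene on both media except XTH21 on standard medium. The share of all probe sets with their highest mean in cpc try was not counted. XTH18 on standard medium was higher in cpc try than in wild type, with a log2 difference of 1.32 ± 0.25 (SE, limma adjusted p = 0.0018) and a ratio of mean signals of 2.51. Both cpc try arrays, 1362 and 1400, lay above the 6 other standard arrays, which reached at most 650. XTH18 was the 1 of 4 members called there, where 2.36% of the probe sets were higher and 3.88% lower. XTH33 was at 1.18 ± 0.66, XTH16 at 0.49 ± 0.60 and XTH21 at 0.28 ± 0.27 (SE, limma adjusted p = 0.35, 0.72 and 0.64). The cpc try arrays of XTH16 and XTH33 were above the 6 other standard arrays too, a pattern that 9.72% of the probe sets showed, and those of XTH21 were not.

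On salt the signal of XTH33 was 58.2 and 42.0 in cpc try, against 4.96 and 3.25 in wild type. The wild type values lie around the 10th percentile of all signals, 4.10, and were not shown to be above background. XTH33 was higher in cpc try, with a difference of 2.71 ± 0.66 (SE, limma adjusted p = 0.015) whose size depends on the pseudocount, from 1.47 with the larger to 3.32 with the smaller. It was the 1 of 4 members called on salt, where 1.99% of the probe sets were higher. This call was lost without wild type salt replicate 2 (2.56, limma adjusted p = 0.064) and without cpc try salt replicate 1 (2.50, limma adjusted p = 0.090). It was also lost when only the arrays compared were fitted (limma adjusted p = 0.34). XTH21 was at 0.87 ± 0.27 and XTH18 at 0.78 ± 0.25 (SE, limma adjusted p = 0.065 and 0.071). Both passed after the arrays were centred on their medians, at 1.00 and 0.92 (limma adjusted p = 0.027 and 0.033), a step that moved the median of all probe sets by 0.14 in this comparison. XTH18 was at 1.29 without wild type salt replicate 1 (limma adjusted p = 0.0021) and at 0.28 without wild type salt replicate 2. XTH16 was at 0.43 ± 0.60 (SE). Both cpc try arrays lay above the 6 other salt arrays for XTH18, XTH21 and XTH33, as for 8.56% of the probe sets. The part of the low root hair markers in these differences was not tested.

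In wer myb23 and scm no member passed in limma against wild type, whose arrays all 3 mutants share. In wer myb23 the count was 0 of 4 on salt and 0 of 4 on standard medium. On salt 2 of 4 had an unadjusted limma p under 0.05, as did 1598 of the 17059 probe sets. On standard medium 0 of 4 did, where 1469 probe sets did. In scm the count was 0 of 4 on both media, and also 0 of 4 unadjusted, where 1187 probe sets on salt and 1482 on standard medium were under 0.05. The background of adjusted calls was 0.205% and 0.0879% in wer myb23 on salt and on standard medium, and 0.00586% and 0.0528% in scm. On standard medium the 95% interval of scm minus wild type ran from -0.37 to 0.67 for XTH18 and from -0.15 to 0.97 for XTH21. For XTH16 it ran from -1.23 to 1.26 and for XTH33 from -1.29 to 1.45. These intervals use a spread estimated over all 8 groups, so those of XTH16 also carry the spread of the wer myb23 salt arrays. The 2 with an unadjusted p under 0.05 in wer myb23 on salt were XTH18 at -0.76 (95% interval -1.28 to -0.24) and XTH33 at 1.40 (95% interval 0.03 to 2.77), with limma adjusted p = 0.31 and 0.52. XTH18 in wer myb23 on salt was at -1.27 without wild type salt replicate 2 (limma adjusted p = 0.021) and at -0.26 without wild type salt replicate 1 (limma adjusted p = 0.78). XTH16 there was at -0.81 ± 0.60 (SE), at -2.40 without wer myb23 salt replicate 1 (limma adjusted p = 0.016) and at 0.79 without wer myb23 salt replicate 2.

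**Figure D4:**
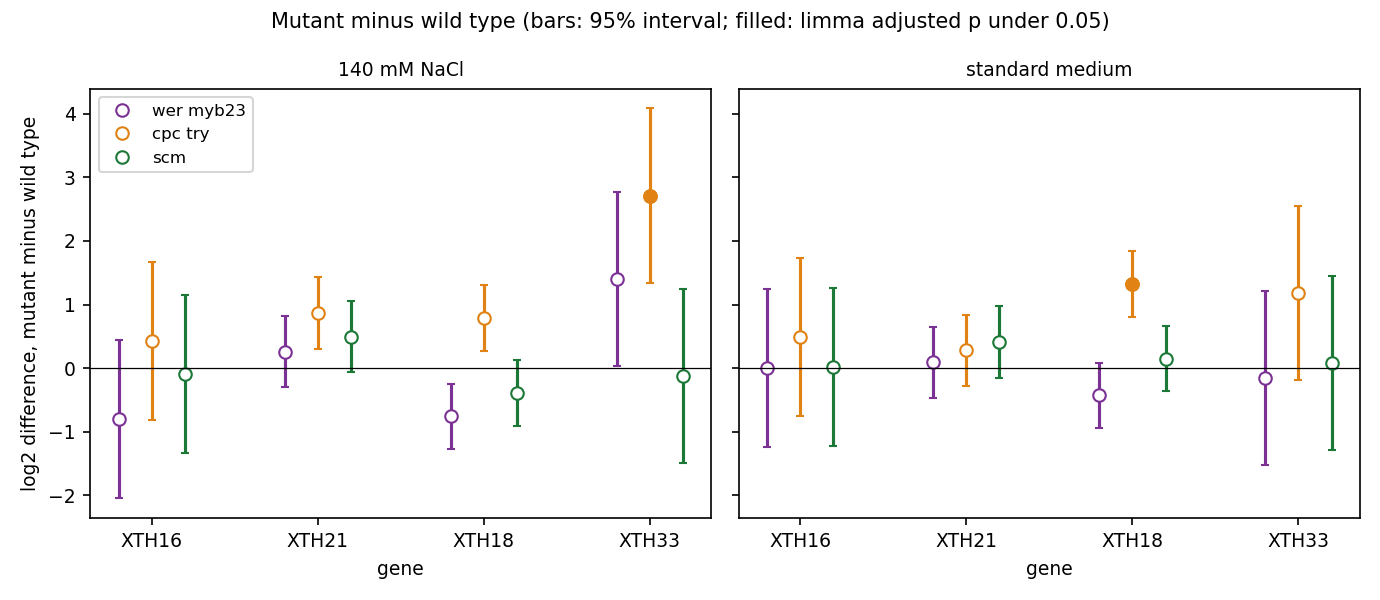
Log2 difference between each mutant and wild type for the 4 genes, on 140 mM NaCl (left) and on standard medium (right), with 95% intervals; filled points have a limma adjusted p under 0.05. The filled points are XTH33 in cpc try on salt (2.71) and XTH18 in cpc try on standard medium (1.32).

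A test for any difference among the 4 genotypes within a medium gave the following. On salt it called XTH18 and XTH33 (limma F test, adjusted p = 0.0017 and 0.020), where 6.59% of the probe sets were called. On standard medium it called XTH18 of the 4 members (limma F test, adjusted p = 0.00042), where 6.21% were. XTH33 was not called when only the salt arrays were fitted (limma F test, adjusted p = 0.40), nor without cpc try salt replicate 1 or replicate 2. Ordered by mean signal, XTH18 had all 4 standard groups above all 4 salt groups. On standard medium its order was cpc try, scm, wild type, wer myb23, and the arrays of scm and wild type overlapped. On salt it was cpc try, wild type, scm, wer myb23, and the arrays of wild type and scm overlapped.

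For XTH16 the order on standard medium was cpc try, scm, wer myb23, wild type, and the last 3 overlapped from one to the next. On salt it was cpc try, wild type, wer myb23, scm, with overlap among the last 3, and the wer myb23 arrays spanned those of every other genotype. For XTH21 all 4 standard groups overlapped with their neighbours in the order scm, cpc try, wer myb23, wild type. On salt, in the order cpc try, scm, wer myb23, wild type, no neighbours did. The share of probe sets with groups so separated was not counted, and the F test over genotypes on salt did not call XTH21. XTH33 broke the split by medium: cpc try on salt, with a mean of 50.1 ± 11.5, came second after cpc try on standard medium, 105 ± 27.1 (SD, n = 2 each). Its arrays overlapped with those of scm on standard medium, which stood next.

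Of the 33 XTH genes, 10 had a probe set with 1 named gene, and 8 of these, the 4 members included, passed the filter on dim probe sets. Averaged over the genotypes 6 of the 8 fell on salt and 0 rose in limma, where 12.8% of the probe sets fell. Of the 6, 4 are the genes described above, which were chosen with earlier results known. Among them XTH33 passed the filter only through the standard arrays. The count therefore does not describe the family as a whole. The other two that fell were XTH19 (AT4G30290), of the XTH17 to XTH20 set, at -0.57 ± 0.08 and XTH27 (AT2G01850, EXGT-A3) at -0.47 ± 0.09 (SE, limma adjusted p = 2.5e-05 and 0.00039). XTH32 (AT2G36870), of the part of the family whose members are known as hydrolases, was at -0.37 ± 0.21 and XTH20 (AT5G48070) at 0.12 ± 0.20 (SE, limma adjusted p = 0.24 and 0.73). XTH26 (AT4G28850), known from root hairs, had signals of 1.89 to 27.1 and XTH29 (AT4G18990) of 1.5 to 31.0, and neither was tested.

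XTH19 and XTH27 did not pass in every genotype. The signal of XTH19 was 492 to 932 in the 8 salt arrays (median 793) and 881 to 1717 in the 8 standard arrays (median 983), and the media overlapped across genotypes. It fell in cpc try, at -0.92 ± 0.17, and in wild type, at -0.71 ± 0.17 (log2 change, SE, limma adjusted p = 0.00095 and 0.0095). In wer myb23 it was at -0.34 and in scm at -0.30 (limma adjusted p = 0.25 and 0.40). XTH27 fell in wer myb23, at -0.80 ± 0.18, and in wild type, at -0.70 ± 0.18 (log2 change, SE, limma adjusted p = 0.0046 and 0.017), and was at -0.09 in cpc try and -0.31 in scm (limma adjusted p = 0.85 and 0.42). Single arrays decided some of these calls. In wild type XTH19 was at -0.67 without standard replicate 1 and -0.47 without salt replicate 2 (limma adjusted p = 0.068 and 0.19), and XTH27 at -0.47 and -0.56 without the same arrays (limma adjusted p = 0.22 and 0.17). XTH27 in wer myb23 was at -0.70 without salt replicate 2 (limma adjusted p = 0.058). Without a trend in the limma prior, XTH19 and XTH27 in wild type had adjusted p = 0.063 and 0.064, and with only the arrays compared XTH27 had limma adjusted p = 0.080. The differences between genotypes in these responses passed for 0 of the 8 genes in limma. In the test over all genotypes 2 of the 8, XTH19 and XTH27, had an unadjusted p under 0.05, as did 1226 of the 17059 probe sets.

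**Figure D5:**
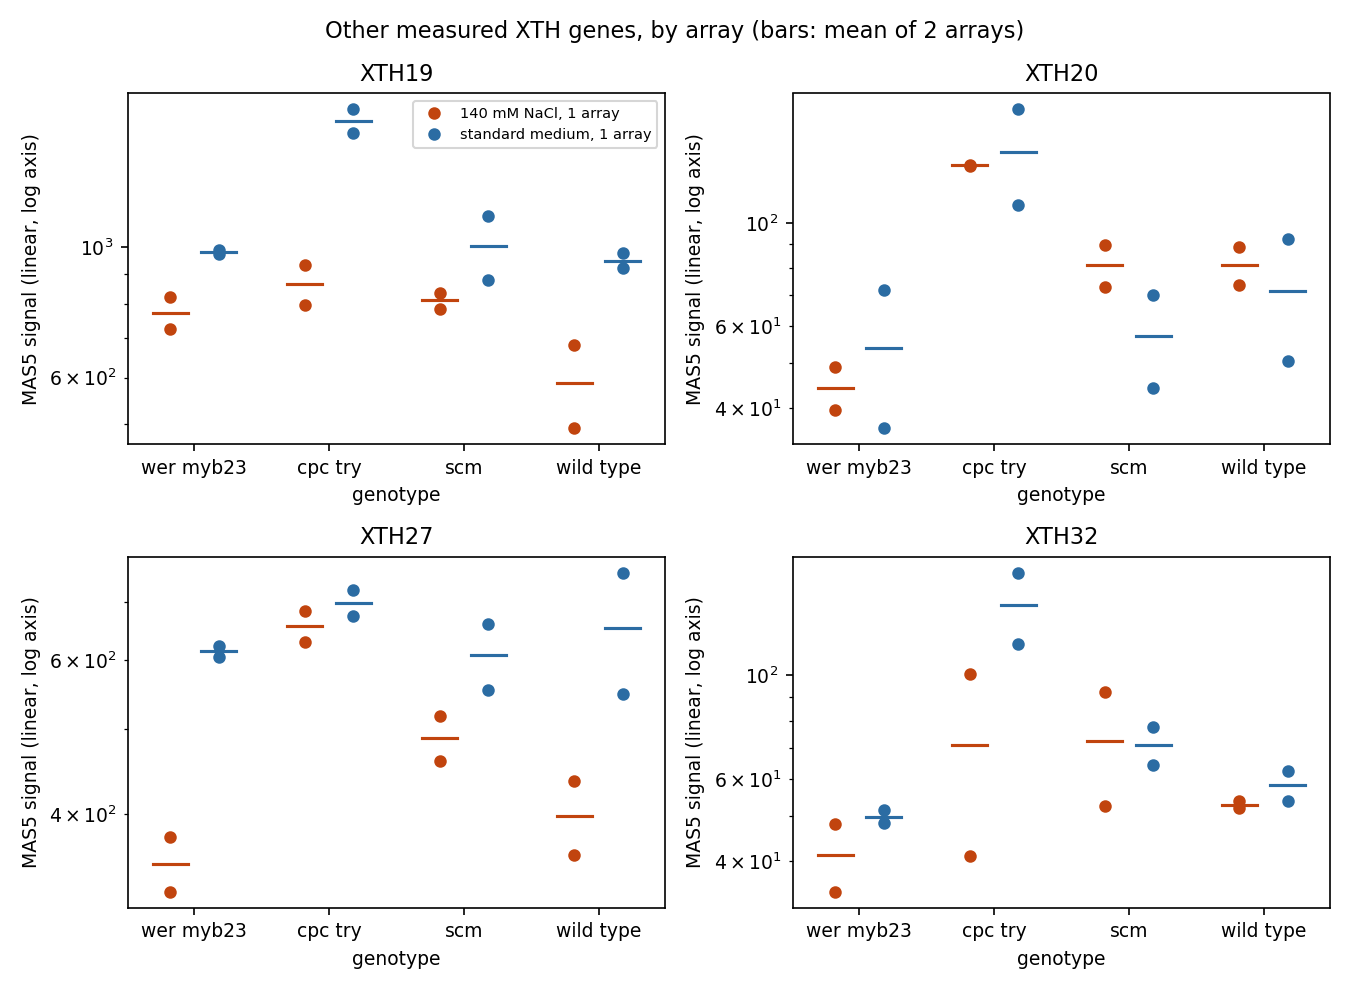
MAS5 signal (log axis) of XTH19, XTH20, XTH27 and XTH32 in each array, by genotype, with salt left of standard medium; points are single arrays and bars the mean of 2. XTH19 in cpc try is at 799 and 932 on salt and at 1568 and 1717 on standard medium; the XTH20 arrays of the 2 media overlap in wer myb23, cpc try and wild type.

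XTH18 and XTH19 lie next to each other on chromosome 4, with XTH24 on the other side of XTH18. The per-array difference, log2 XTH18 minus log2 XTH19, averaged -2.47 ± 0.64 on salt and -0.75 ± 0.42 on standard medium (SD, n = 8 each). All 8 salt arrays lay below all 8 standard arrays, and the difference of the means was -1.72. This pair was chosen after both responses were seen, so the difference is a description with no test. The probe sequences were not used here, so signal shared between these related genes was not tested.

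In cpc try, 1 family member beside the 4 genes differed from wild type on each medium. On standard medium 2 of the 8 tested XTH genes were higher than in wild type and 0 lower in limma, where 2.36% of the probe sets were higher: XTH18 and also XTH19, by 0.79 ± 0.17 (SE, limma adjusted p = 0.0062). XTH32 was at 1.21 ± 0.43 and XTH20 at 0.97 ± 0.40 (SE, limma adjusted p = 0.11 and 0.17). On salt 2 of 8 were higher, where 1.99% of the probe sets were: XTH33 and XTH27, which was at 0.72 ± 0.18 (SE, limma adjusted p = 0.019), with signals of 630 and 683 in cpc try, against 437 and 359 in wild type. The XTH19 call was lost without wild type standard replicate 2 or cpc try standard replicate 2 (0.75 and 0.72, limma adjusted p = 0.056 and 0.073). That of XTH27 was lost without wild type salt replicate 2 or cpc try salt replicate 2 (0.58 and 0.66, limma adjusted p = 0.18 and 0.094). Without a trend in the limma prior both calls were lost (adjusted p = 0.057 for XTH19 and 0.080 for XTH27), and with only the arrays compared that of XTH27 was (limma adjusted p = 0.17). XTH19 on salt was at 0.57 ± 0.17 (SE, limma adjusted p = 0.053). The median log2 difference of the 8 was 0.88 on standard medium and 0.71 on salt, where that of all probe sets was -0.02 and -0.03. The 8 include the 4 genes chosen with earlier results known, so these counts and medians do not describe the family as a whole.

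Of 17 genes of xyloglucan synthesis and trimming, 5 were measured, all of the CSLC family, whose best known member makes the glucan backbone. In the average over genotypes 1 of the 5 fell on salt and 0 rose in limma, a share near the 12.8% of all probe sets that fell. This was CSLC4 (AT3G28180), the backbone synthase itself, at -1.23 ± 0.15 (SE, limma adjusted p = 1.5e-06). It fell in each genotype, with a log2 change of -1.10 in wer myb23, -1.21 in cpc try, -1.09 in scm and -1.51 in wild type (limma adjusted p from 0.0017 to 0.023). Its signal was 102 to 243 in the salt arrays (median 151) and 214 to 541 in the standard arrays (median 422), which overlapped. The call in each genotype was lost without one or more single arrays: salt replicate 2 in wild type (-1.01), salt replicate 2 or standard replicate 2 in cpc try (-1.08 and -1.14), any of the 4 arrays in scm (-1.21 to -0.97) and either salt array or standard replicate 2 in wer myb23 (-1.12 to -0.61), with limma adjusted p from 0.064 to 0.37. Without a trend in the limma prior the call was lost in wer myb23, cpc try and scm (adjusted p = 0.090, 0.071 and 0.12). The averaged fall was called in each of these. The median change of the 5 was -0.20. In cpc try on standard medium 1 of the 5 was lower than wild type in limma, as were 3.88% of probe sets. This was CSLC12 (AT4G07960), with signals of 25.6 and 29.1, against 117 and 124 in wild type. The log2 difference was -1.99 ± 0.40 (SE, limma adjusted p = 0.0038). Its mean signal on standard medium was also 53.6% of wild type in wer myb23 and 54.2% in scm, where 0 of the 5 were called. On salt 0 of the 5 were called in cpc try.

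For each of the 4 genes, the 3 most similar patterns were sought among 9569 probe sets with 1 named gene outside the family, by Pearson's r of log2 values over the 16 arrays. Genes that differ between the media share that split in every such r. XTH16 was closest to AT2G47550, AT3G07000 and CML42 (AT4G20780), a calmodulin-like protein, with r of 0.946, 0.937 and 0.937. XTH21 was closest to AT3G46280, AT2G47550 and AT2G36410, with r of 0.973, 0.970 and 0.967. AT2G47550, near both, had a signal of 69.4 to 129 on salt and 493 to 713 on standard medium. XTH18 was closest to AT5G58784, AT3G10080 and scpl40 (AT3G63470), named as a serine carboxypeptidase-like protein, with r of 0.971, 0.959 and 0.957. XTH33 was closest to AT2G28720, AT2G45180 and AT1G29160, with lower r of 0.913, 0.895 and 0.872.

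Within one medium the likeness differed. Over the 8 salt arrays r was 0.887, 0.937 and 0.922 for the 3 neighbours of XTH18, and over the 8 standard arrays 0.887, 0.861 and 0.855. For XTH21 and AT3G46280 it was 0.848 over the salt arrays and -0.03 over the standard arrays. With AT2G47550 it was 0.421 and -0.008, and with AT2G36410 0.894 and 0.519. For XTH16 and AT2G47550 it was 0.423 over the salt arrays and 0.758 over the standard arrays. With AT3G07000 it was 0.565 and 0.415, and with CML42 0.368 and 0.915. For the 3 neighbours of XTH33 it was 0.860, 0.826 and 0.779 over the salt arrays. Over the standard arrays these were 0.732, 0.724 and 0.480.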

How the data were processed

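The authors deposited linear signal intensity values per probe set, made with MAS5 per the submitters' processing notes; the sources used here give no version, scaling target or genome build. The mean after trimming 2% at each end was 250.03 on every array. From these, log2(signal + 4.10) was computed, 4.10 being the 10th percentile of the table. The 64 control probe sets were left out, and probe sets under the 25th percentile of mean log2 were removed. limma 3.58.1 in R 4.3.3 fitted 8 group means over the 16 arrays (empirical Bayes with trend, 8 residual degrees of freedom). The code was tested on simulated data. Probe sets were named through the platform annotation and RefSeq's gene table (13513 with 1 gene, 503 with several, 8730 with none listed). All measured XTH genes were named, and xyloglucan genes if called. The members and lists were chosen with earlier results of these data known. No sequences are shown. P-values, SEs and intervals rest on 1 spread per probe set, estimated from the replicates of all 8 groups and moderated across probe sets. They do not measure the spread of the compared groups alone. The number of pooled replicates, 2 per group, limits precision. Alternatives covered pseudocount, filter, scaling, trend, replicate block, arrays fitted and left-out arrays.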

Additional observations from a re-analysis of the deposited data

How the results depend on the processing

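Of 806 alternative values for single genes, 751 kept their direction and their side of the threshold, 37 changed sign, 8 gained a call and 10 lost one. The fall of XTH16, XTH18 and XTH21 on salt stayed called in every genotype under all alternatives run. When only the arrays compared were fitted, XTH33 on salt was not called in scm (limma adjusted p = 0.076) or wild type (limma adjusted p = 0.36). The number of members called between cpc try and wild type on salt was 3 with median-centred and 3 with quantile-normalized arrays, 0 when only the arrays compared were fitted, and 0 to 2 with 1 array left out. Between wer myb23 and wild type on salt it was 0 to 1 with 1 array left out. The test over genotypes on salt called 1 member with the median filter, which drops XTH33, 1 when only the salt arrays were fitted, and 1 to 3 with 1 array left out. In the other cases the cause was not tested.

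The values that changed sign were of genes not called. Quantile normalization put the difference from wild type on standard medium at -0.042 for XTH16 and 0.062 for XTH33 in wer myb23, and at -0.0053 for XTH16 in scm. On salt in scm it gave 0.26 for XTH16 and 0.11 for XTH33, and median-centring gave 0.043 and 0.017. For the difference in salt response quantile normalization gave XTH16 at 0.14 in cpc try and 0.26 in scm, and the larger pseudocount gave XTH21 at -0.0096 in scm. With 1 array left out, differences from wild type on standard medium ran from -0.19 to 0.20 (XTH16), -0.30 to 0.48 (XTH21) and -0.46 to 0.14 (XTH33) in wer myb23, from -0.11 to 0.67 (XTH21) in cpc try, and from -0.080 to 0.12 (XTH16) and -0.22 to 0.38 (XTH33) in scm. On salt they ran from -2.40 to 0.79 (XTH16) in wer myb23, and from -0.27 to 0.084 (XTH16), -0.89 to 0.12 (XTH18) and -0.65 to 0.42 (XTH33) in scm. Differences in salt response ran from -2.41 to 0.78 (XTH16), -0.84 to 0.17 (XTH18) and -0.22 to 0.56 (XTH21) in wer myb23, from -0.27 to 0.15 (XTH16) in cpc try, and from -0.29 to 0.067 (XTH16), -0.30 to 0.47 (XTH21) and -0.73 to 0.34 (XTH33) in scm.

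The replicate numbers did not pair the arrays (28 correlations of deviations between -0.034 and 0.052, median 0.015). A replicate block changed no call of a member. With it the 4 genes were still called lower on salt on average over genotypes, XTH33 having passed the filter only through the standard arrays. The number of probe sets whose response differed among genotypes was 22 with the block and 10 without. XTH33 lies near the dim end of the arrays on salt, and its change in wild type ran from -3.13 to -1.34 with the pseudocount. Over all alternatives the number of probe sets called on salt ran from 989 to 2499 in wer myb23 (1872 as reported), 886 to 1756 in cpc try (1639), 694 to 1739 in scm (1338) and 917 to 1647 in wild type (1516). Between cpc try and wild type it ran from 296 to 1080 on salt (953) and from 613 to 1273 on standard medium (1064).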
